A study of Rattus norvegicus with 11 samples.

Results

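Medium conditioned by Schwann cells was set against prostaglandin E2 (PGE2), a lipid that these cells secrete according to the series title, by comparing transcript levels in rat dorsal root ganglion (DRG) neurons that received either. Of 22076 genes with values, 11970 averaged 1 FPKM or more across the 8 treated libraries and were compared on the log2(FPKM + 1) scale. FPKM are sequenced fragments scaled to transcript length and to the mapped fragments of a library. For 271 of the 11970 genes (2.26%) the values of the 4 cultures given Schwann cell conditioned medium (SCCM) and of the 4 given PGE2 did not overlap, and these 271 are described here. SCCM was the higher group for 196 genes (1.64%) and the lower for 75 (0.627%). Genes with no true difference can also separate 4 from 4 libraries by chance. The count of 271 is therefore a description and not by itself evidence of an effect of SCCM.

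The neurons came from wild-type Sprague-Dawley rat embryos of day 15 and were purified by immunopanning, in which antibodies on a dish keep or remove chosen cells. After 13 days in vitro they were given SCCM or 1 µM PGE2 overnight, or were left untreated, and RNA was taken on day 14. Litters of 10 to 18 embryos were pooled, and each pregnant rat counted as a biological replicate. The labels give 4 SCCM, 4 PGE2 and 3 untreated cultures. The labels name no medium from dishes without Schwann cells, so effects of the base medium and of Schwann cell products cannot be told apart. The amount of PGE2 in the conditioned medium is not stated in the labels.

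Schwann cells ensheathe the axons of peripheral neurons and release proteins such as cytokines, growth factors and matrix components as well as lipids. PGE2 acts on the G protein-coupled receptors EP1 to EP4, encoded by Ptger1 to Ptger4, of which EP2 and EP4 raise cAMP. Many cytokines that reach sensory neurons, among them IL-6, LIF and CNTF, act instead through receptors that contain gp130 (Il6st) and the kinases of the JAK family, which phosphorylate STAT3, a transcription factor that then raises its own feedback inhibitor Socs3. Transforming growth factor beta (TGF-beta) is another secreted signal of glia and acts through SMAD proteins.

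Libraries of the same group differed widely. A library held 15664 to 17137 genes above 0 FPKM, and mitochondrially encoded genes made up 3.706 to 10.94% of FPKM in SCCM and 3.203 to 8.135% in PGE2 libraries. On the first principal component, which held 54.5% of the variance, SCCM libraries ran from −42.7 to 31.3 and PGE2 libraries from −50.2 to 47.5. SCCM replicate 1 (−42.7) lay there with PGE2 replicates 1 and 2 (−32.9 and −50.2). SCCM replicates 2 and 3 (28 and 31.3) lay with PGE2 replicates 3 and 4 (26.4 and 47.5). This split did not follow treatment and was uneven between the groups. SCCM replicate 4 lay between, at −7.43, but stood apart in other measures. It had the largest mitochondrial share, 10.94%, and the lowest Thy1, a surface glycoprotein of neurons and fibroblasts. Thy1 measured 216.69 FPKM there, against 659.22 to 847.09 FPKM in the other SCCM libraries. Among the 196 genes higher in SCCM, the highest SCCM value was that of replicate 4 for 85 genes. The lowest PGE2 value was that of PGE2 replicate 4 for 87 and of PGE2 replicate 1 for 72. The part of these libraries in the counts was not tested.

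Neuronal genes were abundant in both groups. The summed FPKM of 22 neuron markers was 9381 to 13748 in SCCM and 12304 to 13503 in PGE2 libraries. Of the markers of other cell types, 17 of 28 Schwann cell and satellite glia genes, 13 of 19 fibroblast and meningeal genes, 15 of 19 endothelial and mural genes and 18 of 20 macrophage and immune genes stayed under 1 FPKM in all 8 treated libraries. The defining markers Gfap (satellite glia), Emcn and Cldn5 (endothelium) and Ptprc and Cx3cr1 (immune cells) were listed at 0 in all 8. Other markers on these lists were present, such as the glial gene S100b at up to 9.23 FPKM, the endothelial gene Egfl7 at 0.93 to 2.86 FPKM and Cd68, of macrophages and other cells, at up to 14.54 FPKM.

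The 196 genes higher in SCCM had a median log2 difference of 0.55, with 30 of them at 1 or more, whereas the 75 lower genes had a median of −0.335 and 1 gene past 1 in size. Over all tested genes the median difference was 0.022 and the median absolute difference 0.16. Because the members were chosen by this contrast, these sizes are a description. Values depended on scaling: with median-ratio scaling 159 genes did not overlap in the higher and 119 in the lower direction (57.2% higher, against 72.3% on the deposited scale), and with quantile normalization 168 and 126 (57.1% higher). Under all 3 scalings, 77 of the 196 higher and 20 of the 75 lower genes did not overlap.

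Members at the edge of the rule show how small a gap it admits. Nol9, which encodes a nucleolar kinase of ribosomal RNA processing, was just inside it with 19.57 to 23.52 FPKM in SCCM and 14.33 to 19.52 FPKM in PGE2. Dazap1, an RNA-binding protein gene, was just inside in the other direction, at 8.77 to 9.75 FPKM in SCCM and 9.76 to 10.48 FPKM in PGE2. C2cd4a was just outside, its lowest SCCM value and its highest PGE2 value both being 1.59 FPKM. AABR07035357.1, a row with no gene name, was just outside in the lower direction, with 17.46 FPKM as both the highest SCCM and the lowest PGE2 value.

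**Figure D1:**
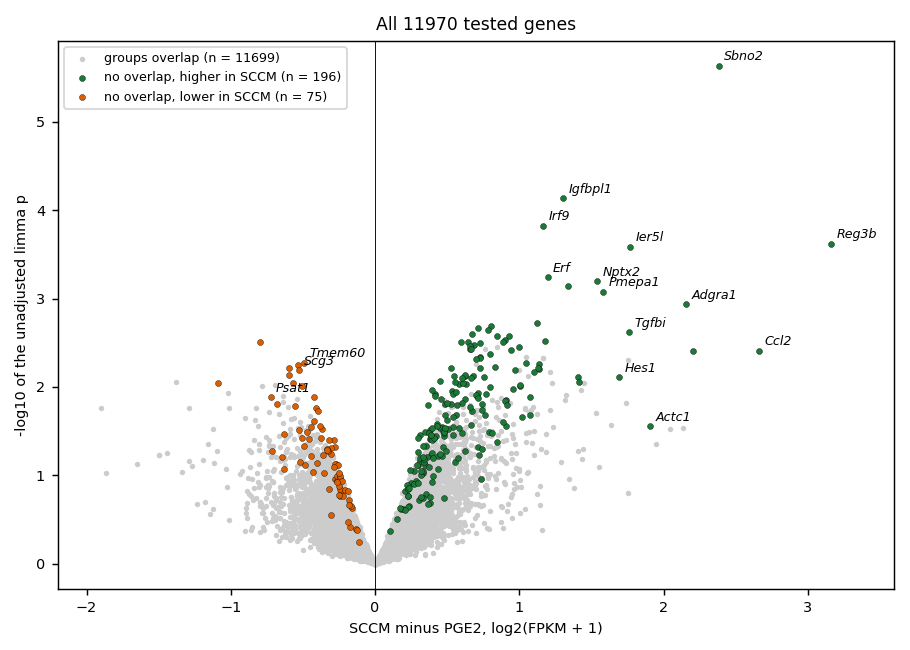
Difference between SCCM and PGE2 on the log2(FPKM + 1) scale (x) against −log10 of the unadjusted limma p (y) for the 11970 tested genes. Green points are the 196 genes that do not overlap and are higher in SCCM, orange points the 75 that do not overlap and are lower, and grey points all others. Sbno2 lies apart at the top right, and the green points reach farther from 0 than the orange ones.

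Genes of cytokine signalling through gp130 and STAT3 held the gene with the strongest statistical support. Sbno2 encodes a transcriptional co-regulator that is induced through STAT3 in mouse macrophages. It measured 11.54, 9.62, 12.66 and 17.91 FPKM in SCCM, 1.48, 2.69, 1.56 and 0.99 FPKM in PGE2, and 4.04, 3.42 and 1.54 FPKM in untreated cultures. Every SCCM library was above every PGE2 and every untreated library. The means were 12.9 ± 3.55 FPKM in SCCM (SD, n = 4) and 1.68 ± 0.719 FPKM in PGE2 (SD, n = 4), a ratio of 7.70 on the FPKM scale. The log2 difference was 2.38 (SE 0.27, 95% interval 1.78 to 2.98, limma adjusted p = 0.0277).

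Sbno2 was the only 1 of 11970 genes (0.00835%) with a limma adjusted p under 0.05. An unadjusted limma p under 0.05 was found for 402 genes (3.36%), 310 of them (2.59% of all) higher in SCCM. Chance alone gives such a p to about 1 gene in 20, so 402 genes are no excess. The Sbno2 difference lay between 2.22 and 2.55 when any of the 11 libraries was left out. Its adjusted p was 0.057 with log2(FPKM + 0.1), 0.133 without the filter on low values and 0.603 with a replicate block. It also rose above 0.05 without any of SCCM replicates 1 to 4 (0.0563, 0.066, 0.166 and 0.138), without PGE2 replicate 1, 3 or 4 (0.172, 0.167 and 0.142), and without untreated replicate 2 (0.0733). It stayed below without PGE2 replicate 2 (0.0264) and without untreated replicate 1 or 3 (0.0403 and 0.0139).

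Reg3b, a secreted lectin of the C type made by sensory neurons after nerve injury, was near absent outside the SCCM cultures. It measured 1.33, 5.01, 17.22 and 26.52 FPKM in SCCM, was listed at 0 in PGE2 replicates 2, 3 and 4 and in all 3 untreated libraries, and was at 0.09 FPKM in PGE2 replicate 1. The lowest SCCM value was therefore above all other libraries, while the SCCM libraries spanned a wide range among themselves. The log2 difference from PGE2 was 3.16 (SE 0.60, limma adjusted p = 0.62), and without SCCM replicate 1 it was 3.82 (adjusted p = 0.0265).

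Ccl2, which encodes a chemokine that attracts monocytes, measured 32.8, 54.25, 76.29 and 14.3 FPKM in SCCM and 1.53, 3.85, 13.34 and 6.9 FPKM in PGE2. SCCM replicate 4 and PGE2 replicate 3 nearly met, and under median-ratio scaling and quantile normalization the groups overlapped. Untreated libraries lay at 10.01, 3.61 and 0.12 FPKM. The log2 difference was 2.66 (SE 0.74, limma adjusted p = 1.0).

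Cish, a member of the SOCS family of feedback inhibitors that is induced by STAT5, was even across the SCCM libraries, at 41.61, 39.37, 36.45 and 40.21 FPKM. PGE2 libraries lay at 23.82, 23.35, 25.88 and 17.26 FPKM. Untreated libraries, at 54.61, 23.4 and 13.62 FPKM, spanned both groups. Tnfrsf1a, a receptor for tumour necrosis factor, measured 72.52, 60.06, 67.84 and 61.98 FPKM in SCCM and 52.8, 54.38, 43.25 and 36.22 FPKM in PGE2, and all SCCM values were above the untreated range of 34.03 to 55.29 FPKM. The log2 differences of Cish and Tnfrsf1a were 0.79 (SE 0.32) and 0.50 (SE 0.19).

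Stat3 and Socs3 themselves overlapped. Stat3 measured 67.57, 99.89, 88.04 and 113.08 FPKM in SCCM and 67.96, 45.55, 55.86 and 45.96 FPKM in PGE2, so that only PGE2 replicate 1 reached into the SCCM range. Socs3 measured 3.69, 0.78, 3.79 and 8.94 FPKM in SCCM and 0.07, 1.87, 0 and 0 FPKM in PGE2, where replicate 2 lay above SCCM replicate 2. Their log2 differences were 0.76 (SE 0.21) and 1.75 (SE 0.51), each with a limma adjusted p of 1.0. The receptor genes had smaller differences, −0.10 (SE 0.20) for Il6st, 0.17 (SE 0.19) for Cntfr and 0.01 (SE 0.44) for Lifr, the last with 36.47 to 88.71 FPKM in SCCM and 26.13 to 131.07 FPKM in PGE2. Leaving out single libraries turned the sign for Il6st and Lifr, and so did median-ratio scaling for Lifr.

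Of 34 tested members of the gp130, cytokine and JAK-STAT list, 5 did not overlap and were higher (Sbno2, Reg3b, Ccl2, Cish and Tnfrsf1a), against 1.64% of all tested genes, 0 did so in the lower direction, and 26 had a higher mean in SCCM. The median log2 difference of the list was 0.37, or 0.35 with median-ratio scaling and 0.33 with quantile normalization, against 0.022 over all tested genes. Without PGE2 replicate 4 it was 0.20, with 23 of 34 means higher. The list was written with earlier results for Sbno2, Reg3b, Ccl2, Stat3 and Socs3 known, so its counts are no independent evidence of direction. Jak2, a kinase, Bcl6, a transcriptional repressor, and Timp1, an inhibitor of matrix proteases, chosen after their values were seen, differed by 0.55 (SE 0.24), 1.21 (SE 0.37) and 1.45 (SE 0.46) and overlapped between the groups.

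Irf9, the DNA-binding subunit of the interferon-activated complex ISGF3, measured 6.08, 6.8, 8.13 and 10.94 FPKM in SCCM and 2.85, 2.34, 2.92 and 3.73 FPKM in PGE2. The untreated libraries, at 4.89, 4.15 and 6.69 FPKM, were all above the PGE2 libraries and reached into the SCCM range. The log2 difference was 1.16 (SE 0.21, limma adjusted p = 0.597). Irf9 was the only 1 of 16 tested interferon and antigen presentation genes without overlap, against 2.26% of all tested genes. Of the 16, 11 had a lower mean in SCCM, with a list median of −0.09. Without PGE2 replicate 2, 7 of 16 were lower and the median was 0.04, and without SCCM replicate 3, 8 were lower with a median of −0.01.

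The promoter letters of 4 of these genes are shown because STAT dimers are known to bind the palindrome TTCNNNGAA, and the genes differ in whether the bases before their start hold it. Each run is the 250 bases upstream of the transcript start in RefSeq, build GRCr8, 5′ to 3′ on the coding strand, with matches to TTCNNNGAA in capitals. The motif reads the same on both strands.
Sbno2, chr7:10256026-10256275, + strand: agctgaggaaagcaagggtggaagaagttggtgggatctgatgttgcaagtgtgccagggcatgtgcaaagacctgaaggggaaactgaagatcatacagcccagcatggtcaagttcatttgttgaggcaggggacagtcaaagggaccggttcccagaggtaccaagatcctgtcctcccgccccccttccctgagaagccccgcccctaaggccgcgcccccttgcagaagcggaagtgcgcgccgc
Cish, chr8:116850719-116850968, + strand: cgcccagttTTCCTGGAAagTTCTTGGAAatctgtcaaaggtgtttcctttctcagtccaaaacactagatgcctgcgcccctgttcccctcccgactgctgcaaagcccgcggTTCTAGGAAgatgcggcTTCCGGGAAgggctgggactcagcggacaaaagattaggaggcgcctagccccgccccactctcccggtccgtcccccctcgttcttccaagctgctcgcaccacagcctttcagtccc
Reg3b, chr4:112419526-112419775, + strand: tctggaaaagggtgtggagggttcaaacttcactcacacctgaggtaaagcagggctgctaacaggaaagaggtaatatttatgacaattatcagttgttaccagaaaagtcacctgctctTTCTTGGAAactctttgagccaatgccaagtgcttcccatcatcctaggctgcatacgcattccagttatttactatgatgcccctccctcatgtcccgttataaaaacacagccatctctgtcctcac
Irf9, chr15:33065586-33065835, + strand: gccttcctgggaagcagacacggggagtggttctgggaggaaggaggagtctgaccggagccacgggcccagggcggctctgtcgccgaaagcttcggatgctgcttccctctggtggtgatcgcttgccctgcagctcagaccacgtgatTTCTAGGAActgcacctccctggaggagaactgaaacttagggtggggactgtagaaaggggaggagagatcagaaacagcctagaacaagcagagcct

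Cish held 4 matches, beginning 241, 230, 136 and 119 bases before the start, Reg3b 1 match at 129 bases, Irf9 1 match at 99 bases and Sbno2 0. Of 33469 such windows of RefSeq genes, 7.67% held a match. Of the windows of genes tested here, 5.55% did. Other named cytokine genes with a window (Tnfrsf1a, Stat3, Socs3, Jak2, Bcl6, Timp1, Il6st and Lifr) held 0 matches. A match is a run of letters and not evidence of binding, and the window covers only a short stretch before each start.

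**Figure D2:**
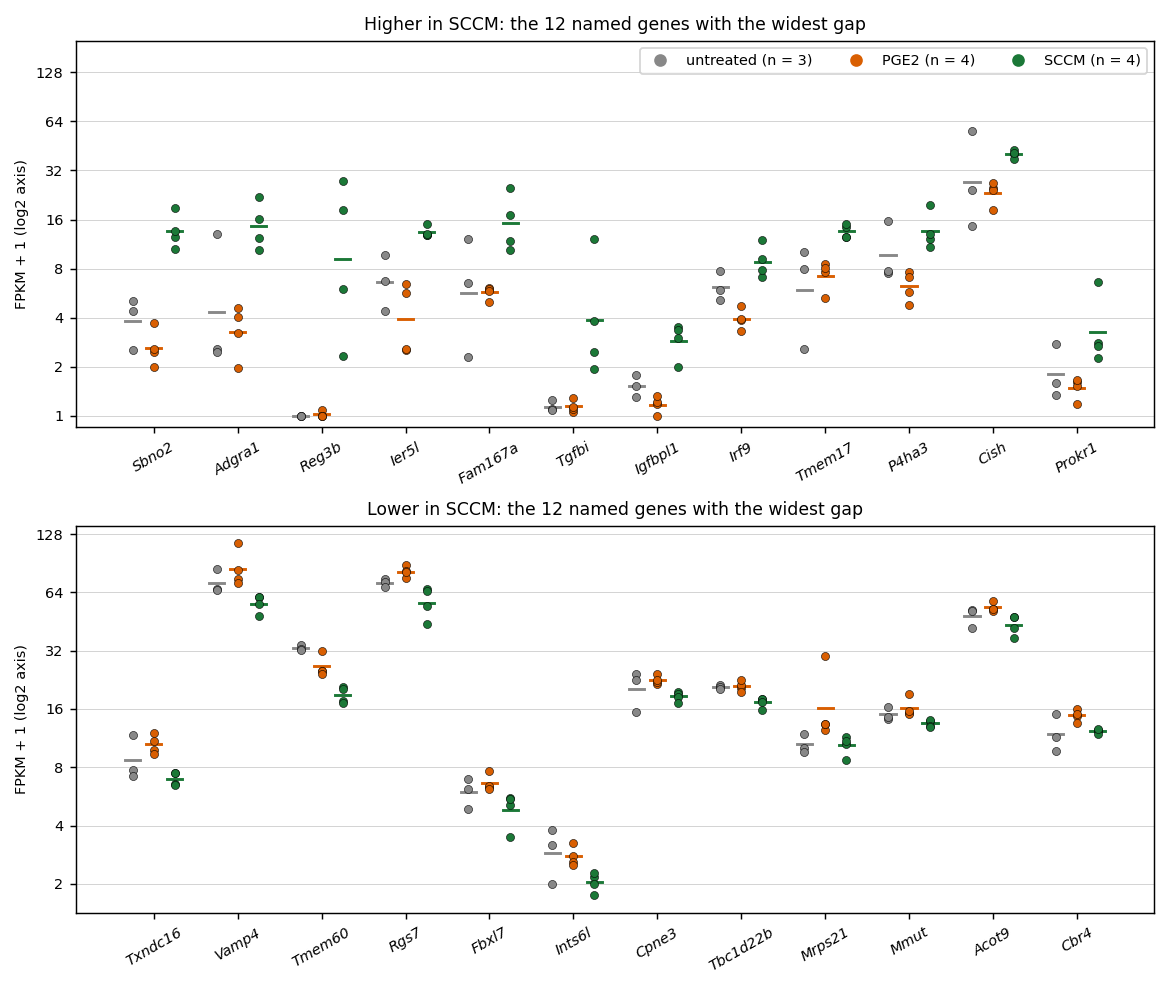
FPKM + 1 on a log2 axis (y) in each library for the 12 named genes with the widest gap in each direction (x), with untreated libraries in grey (n = 3), PGE2 in orange (n = 4) and SCCM in green (n = 4). Points are libraries and bars are means of log2(FPKM + 1). In the upper panel every green point lies above every orange point, with the widest gap for Sbno2, and in the lower panel the order is turned and the distances are smaller.

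TGF-beta and BMP response genes held 6 of 26 tested members without overlap, all higher in SCCM, against 1.64% of all tested genes, and 3 of them (Tgfbi, Skil and Acvr1) also under both other scalings. Over the list, 13 means were higher and 13 lower, and the median difference was 0.00, or up to 0.21 without PGE2 replicate 2. Like the other lists, it was written with earlier results of these data known, so its counts are no independent evidence. Tgfbi encodes a matrix protein named for its induction by TGF-beta. It measured 0.94, 1.48, 2.83 and 11.23 FPKM in SCCM, 0.05, 0.11, 0.28 and 0.14 FPKM in PGE2 and at most 0.25 FPKM in untreated cultures. Pmepa1, whose product limits TGF-beta signalling by feedback, measured 10.26, 25.19, 29.23 and 19.07 FPKM in SCCM against 4.74, 3.9, 6.61 and 9.38 FPKM in PGE2, and SCCM replicate 1 nearly met PGE2 replicate 4 and the highest untreated library at 10.0 FPKM.

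The SMAD co-repressors Skil and Ski differed less. Skil measured 13.34, 11.54, 12.7 and 19.3 FPKM in SCCM and 9.16, 10.04, 5.41 and 5.67 FPKM in PGE2, with untreated libraries at 11.16 to 12.29 FPKM, all above the PGE2 range. Ski ran from 12.82 to 15.51 FPKM in SCCM and from 6.56 to 12.68 FPKM in PGE2. Fst, which encodes the activin antagonist follistatin, ran from 0.55 to 2.99 FPKM in SCCM and from 0.17 to 0.52 FPKM in PGE2. Acvr1, a BMP type I receptor, ran from 3.14 to 3.96 FPKM in SCCM and from 1.93 to 2.95 FPKM in PGE2. Log2 differences were 1.76 (SE 0.45) for Tgfbi, 1.58 (SE 0.35) for Pmepa1 and 0.85 (SE 0.22) for Skil, each with a limma adjusted p of 1.0.

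Other genes with wide gaps belonged to none of the lists. Adgra1, an adhesion G protein-coupled receptor, measured 11.37, 9.36, 21.0 and 15.17 FPKM in SCCM and 3.56, 0.97, 2.21 and 3.03 FPKM in PGE2, and untreated libraries fell on both sides at 12.14, 1.56 and 1.46 FPKM. Igfbpl1, a secreted relative of the IGF-binding proteins, measured 0.99, 2.49, 2.36 and 2.01 FPKM in SCCM, 0.18, 0.22, 0.32 and 0 FPKM in PGE2 and 0.31 to 0.78 FPKM in untreated cultures. Both genes had all SCCM values above all PGE2 values, and Igfbpl1 had them above all untreated values too. Prokr1, a receptor for prokineticins, measured 1.79, 1.27, 1.69 and 5.65 FPKM in SCCM and 0.62, 0.53, 0.18 and 0.66 FPKM in PGE2. P4ha3, a subunit of the collagen prolyl hydroxylase, ran from 9.81 to 18.64 FPKM in SCCM and from 3.8 to 6.67 FPKM in PGE2. Log2 differences were 2.15 (SE 0.50) for Adgra1, 1.30 (SE 0.22) for Igfbpl1, 1.14 (SE 0.34) for Prokr1 and 1.12 (SE 0.28) for P4ha3.

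Ier5l, a relative of an immediate early gene, was even in SCCM at 11.8, 11.86, 11.98 and 14.02 FPKM and split in PGE2 at 1.54, 5.46, 4.65 and 1.56 FPKM. Untreated libraries lay at 8.76, 5.76 and 3.41 FPKM, below all SCCM libraries. Tmem17, a protein of the transition zone of cilia, ran from 11.48 to 14.09 FPKM in SCCM, from 4.26 to 7.52 FPKM in PGE2 and from 1.58 to 9.15 FPKM untreated. Fam167a ran from 9.4 to 23.99 FPKM in SCCM and from 3.99 to 5.05 FPKM in PGE2. The log2 differences were 1.77 (SE 0.34) for Ier5l, 0.91 (SE 0.36) for Tmem17 and 1.41 (SE 0.44) for Fam167a.

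Among further genes chosen after their values were seen, Hes1, a repressor induced by Notch signalling, measured 18.88, 35.86, 34.35 and 23.71 FPKM in SCCM, 3.17, 5.45, 15.45 and 12.21 FPKM in PGE2 and 1.67 to 11.58 FPKM untreated. Hbegf, a ligand of the EGF receptor, ran from 2.16 to 2.86 FPKM in SCCM and from 0.79 to 1.63 FPKM in PGE2. The membrane protein genes Tmem176a and Tmem176b ran from 51.67 to 52.98 and from 42.91 to 57.36 FPKM in SCCM, and from 25.72 to 41.55 and from 27.97 to 33.97 FPKM in PGE2. Sesn3, a stress-inducible regulator of mTORC1, ran from 10.72 to 15.49 FPKM in SCCM and from 6.13 to 7.64 FPKM in PGE2. Plxna1, a semaphorin co-receptor, ran from 12.79 to 19.09 FPKM in SCCM and from 7.32 to 9.96 FPKM in PGE2. Each of these genes had all SCCM values above all PGE2 values, and the log2 differences ran from 0.63 (SE 0.20) for Tmem176b to 1.69 (SE 0.52) for Hes1. Tmem176b and Hes1 overlapped under median-ratio scaling.

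The untreated libraries place each member. For 73 of the 196 higher genes all SCCM values were also above all untreated values, among them Sbno2, Reg3b, Tgfbi, Igfbpl1, Ier5l and Hes1. For 23 the PGE2 values were below all untreated values, among them Irf9, Erf and Skil, and for 100 the untreated libraries reached to both sides of the gap. Of the 75 lower genes, 24 had SCCM below all untreated values, 8 had PGE2 above them, 42 had untreated libraries on both sides, and 1, Rgs7, had all untreated libraries in the gap. Over all tested genes, SCCM lay above all untreated libraries for 4.83% and below for 5.80%, and PGE2 lay below for 3.52% and above for 1.78%. These comparisons share libraries with the one that chose the members, so the counts describe where the untreated values lie and test nothing. Of the genes without overlap under all 3 scalings, 18 higher and 11 lower ones had SCCM beyond the untreated range, and 15 higher and 2 lower ones had PGE2 beyond it.

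**Figure D3:**
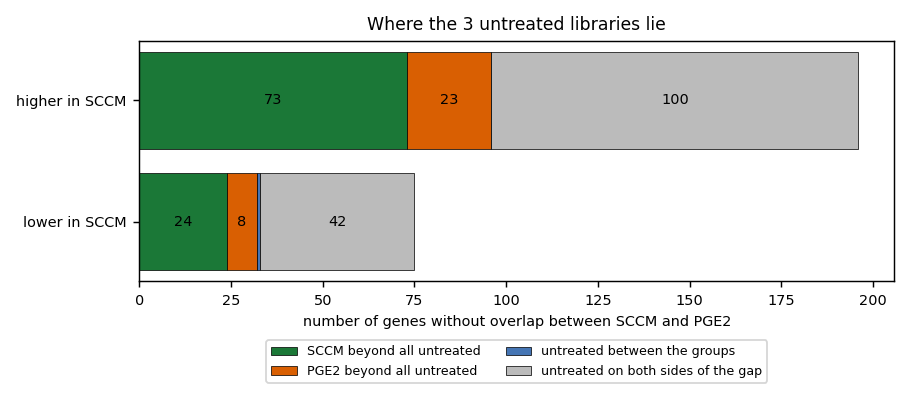
Number of genes without overlap between SCCM and PGE2 (x) in each direction (y), divided by where the 3 untreated libraries lie. Of the 196 higher genes, 73 have SCCM beyond all untreated libraries (green), 23 have PGE2 beyond them (orange) and 100 have untreated values on both sides (grey); the lower genes divide into 24, 8 and 42, with 1 gene whose untreated values lie in between (blue).

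Among genes of growth factor signalling through ERK, 2 of 27 tested members, Erf and Myc, did not overlap, both higher in SCCM, against 1.64% of all tested genes. The list median was −0.01, and 0.42 without PGE2 replicate 2. Erf, a repressor of the ETS family that ERK removes from the nucleus, measured 85.05, 58.97, 81.0 and 91.88 FPKM in SCCM and 36.59, 48.45, 33.69 and 21.1 FPKM in PGE2. Untreated libraries, at 93.11, 61.46 and 60.57 FPKM, were all above the PGE2 libraries, and replicate 1 was also above the highest SCCM library. The log2 difference was 1.20 (SE 0.25, limma adjusted p = 1.0), and Erf kept its gap under both other scalings, whereas Myc overlapped under both. Myc, a growth-promoting transcription factor, ran from 14.99 to 17.29 FPKM in SCCM and from 5.35 to 12.71 FPKM in PGE2, where replicate 1 was the low library.

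Genes induced by cAMP and neuronal activity, the response that EP2 and EP4 can raise, had 2 of 28 tested members without overlap, again higher in SCCM than in PGE2, against 1.64% of all tested genes. Nptx2, a synaptic pentraxin, measured 40.0, 54.64, 45.75 and 23.92 FPKM in SCCM and 9.6, 15.35, 18.86 and 9.8 FPKM in PGE2. Cited2, a transcriptional co-regulator, ran from 21.24 to 34.19 FPKM in SCCM and from 9.75 to 19.33 FPKM in PGE2. Untreated libraries spanned the gap for both (13.3 to 34.05 FPKM for Nptx2 and 16.7 to 29.31 FPKM for Cited2). The list had 14 higher and 14 lower means and a median of 0.00, or 0.30 without PGE2 replicate 2. The log2 differences were 1.54 (SE 0.33) and 0.77 (SE 0.26). Plk2, a kinase of active synapses chosen after its values were seen, measured 25.79, 33.4, 33.33 and 26.67 FPKM in SCCM and 8.41, 20.57, 14.52 and 14.23 FPKM in PGE2.

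None of the 11 tested prostaglandin pathway genes separated the groups. Since only 2.26% of all tested genes did so, this count says little about a list of this size. The EP4 gene Ptger4 measured 3.43, 1.24, 1.36 and 0.79 FPKM in SCCM and 0.37, 1.14, 0.6 and 0.22 FPKM in PGE2, a log2 difference of 0.72 (SE 0.29). Ptger1 differed by 0.49 (SE 0.33), Ptger2 by −0.32 (SE 0.64) and Ptger3 by 0.12 (SE 0.28), but Ptger2 came to 2.1e-04 without SCCM replicate 4 and Ptger3 to −0.14 without SCCM replicate 3. Ptgir, the prostacyclin receptor gene, ran from 100.89 to 223.94 FPKM in SCCM and from 27.56 to 154.43 FPKM in PGE2.

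The sodium channels of nociceptors overlapped as well. Scn10a measured 32.89, 72.79, 101.25 and 62.41 FPKM in SCCM and 18.14, 32.89, 83.68 and 89.84 FPKM in PGE2. In each group replicate 1 was the lowest, and the difference of 0.43 (SE 0.52) became −0.0096 without PGE2 replicate 1. Scn9a and Scn11a differed by 0.48 (SE 0.52) and 0.21 (SE 0.40), and Scn11a by −0.11 without that library. The 95% intervals were −0.71 to 1.56 for Scn10a, −0.66 to 1.61 for Scn9a and −0.66 to 1.08 for Scn11a, so neither a difference nor its absence is shown. Of 11 tested sodium channel genes 9 had a higher mean in SCCM, with a median of 0.11. Without PGE2 replicate 1 this was 4 of 11 with a median of −0.01, without SCCM replicate 3 it was 6 of 11 with 0.02, and without PGE2 replicate 4 it was 11 of 11 with 0.37.

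Other channels contributed single members. Cacna1h, the T-type calcium channel Cav3.2, measured 8.25, 10.64, 7.7 and 8.82 FPKM in SCCM and 3.79, 6.92, 6.42 and 3.68 FPKM in PGE2, with untreated libraries from 4.81 to 9.22 FPKM. It was 1 of 17 tested calcium channel genes without overlap, where the share over all tested genes was 2.26%, and differed by 0.70 (SE 0.24). Kcnh1, a voltage-gated potassium channel, ran from 2.64 to 2.96 FPKM in SCCM and from 1.6 to 2.07 FPKM in PGE2 and was 1 of 27, a share near that of all genes. Kcnh1 overlapped under both other scalings. Of 20 tested sensory transduction genes 0 separated, against 2.26% of all tested genes. Trpv1, the capsaicin receptor, ran from 0.74 to 3.56 FPKM in SCCM and from 0.35 to 1.02 FPKM in PGE2, and P2rx5, an ATP-gated channel, from 0.8 to 1.36 FPKM and from 0.87 to 8.44 FPKM.

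Of 21 tested neuron markers, 2 transcription factor genes, Pou4f1 and Drgx, did not overlap, against 2.26% of all tested genes. Pou4f1, which encodes the POU factor Brn3a, measured 70.82, 80.38, 77.37 and 65.71 FPKM in SCCM and 18.95, 34.88, 61.43 and 39.56 FPKM in PGE2, and untreated libraries ran from 20.71 to 72.1 FPKM. Drgx, a homeobox factor of DRG neurons, ran from 18.29 to 21.72 FPKM in SCCM and from 8.56 to 17.45 FPKM in PGE2. Pou4f1 and Drgx overlapped under at least 1 other scaling. In the bulk samples, more cells of a type and more RNA per cell cannot be told apart.

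Of the nerve injury and regeneration genes, 25 of 32 tested members had a higher mean in SCCM, with a median of 0.21. Fst alone separated the groups, against 2.26% of all tested genes. The median was 0.05 without PGE2 replicate 3 (19 of 32 higher), 0.07 without PGE2 replicate 4, 0.09 without SCCM replicate 4 and 0.36 without SCCM replicate 2. In the list of neurotrophic factors and receptors, 1 member of 21 did not overlap, against 2.26% of all tested genes. This was Igfbp3, an IGF-binding protein, at 6.43, 4.52, 7.54 and 13.31 FPKM in SCCM and 2.3, 2.6, 2.51 and 3.63 FPKM in PGE2. It was highest in SCCM replicate 4, as were Reg3b and Tgfbi.

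**Figure D4:**
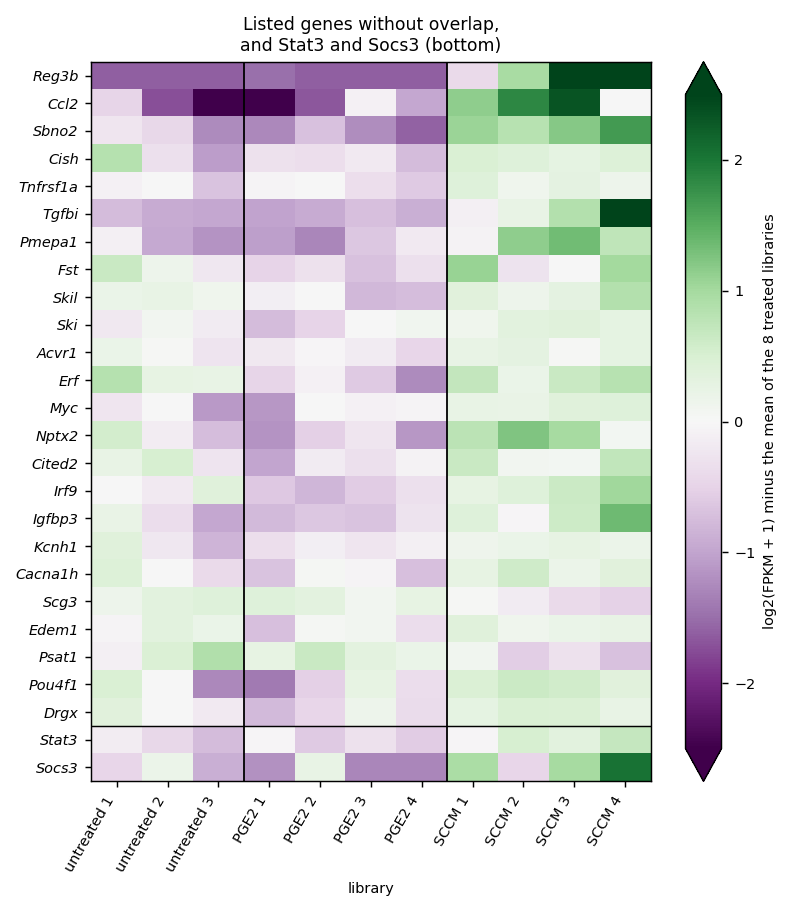
Values of the listed genes without overlap, and of Stat3 and Socs3 below the line, in all 11 libraries (x), as log2(FPKM + 1) minus the gene's mean over the 8 treated libraries, in green above and purple below that mean (arrows on the colour scale mark values beyond its ends). Every gene above the line except Scg3 and Psat1 is higher in the 4 SCCM columns than in the 4 PGE2 columns, and the untreated columns differ among themselves.

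Genes lower in SCCM had smaller differences, of at most 1.09 in size. Txndc16, a thioredoxin-domain protein of the endoplasmic reticulum, measured 5.55, 6.48, 5.45 and 6.45 FPKM in SCCM and 9.97, 8.85, 11.05 and 8.39 FPKM in PGE2. Vamp4, a SNARE of the trans-Golgi network, measured 59.71, 59.37, 54.46 and 47.62 FPKM in SCCM and 73.83, 70.94, 82.5 and 113.53 FPKM in PGE2, and all SCCM values were below the untreated range of 64.77 to 83.26 FPKM. Their log2 differences were −0.59 (SE 0.18) and −0.60 (SE 0.18), each with a limma adjusted p of 1.0. Vamp4 overlapped between SCCM and PGE2 under median-ratio scaling.

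Scg3, a granin of dense-core vesicles, measured 197.5, 173.19, 147.19 and 134.98 FPKM in SCCM, 256.53, 241.53, 207.07 and 232.03 FPKM in PGE2 and 218.5, 245.82 and 256.79 FPKM untreated. All SCCM values were below all PGE2 values under each of the 3 scalings and below all untreated values on the deposited scale. The log2 difference was −0.53 (SE 0.16). Scg3 was the 1 member of 22 tested neuropeptide and granin genes without overlap, against 2.26% of all tested genes. Rab6a, which encodes a Golgi GTPase and was chosen after its values were seen, ran from 247.26 to 277.21 FPKM in SCCM and from 286.43 to 342.77 FPKM in PGE2. Its groups overlapped under both other scalings.

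Rgs7, a regulator of G protein signalling in neurons, was the member with the untreated libraries between the treatments. It measured 65.89, 63.76, 53.19 and 43.04 FPKM in SCCM, 74.0, 71.14 and 67.64 FPKM untreated and 88.15, 81.16, 74.61 and 80.87 FPKM in PGE2. Tmem60, a membrane protein gene, measured 19.78, 16.51, 16.18 and 19.33 FPKM in SCCM, 24.23, 24.14, 23.37 and 31.01 FPKM in PGE2 and 31.16 to 33.12 FPKM untreated, and here untreated libraries were the highest group. The log2 differences were −0.53 (SE 0.16) for Rgs7 and −0.49 (SE 0.14) for Tmem60.

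The remaining lower genes with wide gaps differed by −0.27 to −0.63. Mmut, the mitochondrial methylmalonyl-CoA mutase, ran from 11.88 to 13.04 FPKM in SCCM and from 14.1 to 18.2 FPKM in PGE2. Acot9, a mitochondrial acyl-CoA thioesterase, ran from 36.01 to 46.83 and from 50.41 to 56.93 FPKM. Cbr4, a reductase of mitochondrial fatty acid synthesis, ran from 10.84 to 11.67 and from 12.6 to 14.96 FPKM. Mrps21, a mitochondrial ribosomal protein gene, ran from 7.76 to 10.5 and from 11.45 to 29.1 FPKM, with PGE2 replicate 4 far above the others. Fbxl7, a subunit of ubiquitin ligases, Ints6l, a relative of an Integrator subunit, Cpne3, a calcium-binding copine, and Tbc1d22b, with a Rab GTPase-activating domain, made up the rest of the 12. Their log2 differences were −0.46 (SE 0.20), −0.45 (SE 0.21), −0.28 (SE 0.16) and −0.28 (SE 0.12). Those of Mmut, Acot9, Cbr4 and Mrps21 were −0.27 (SE 0.14), −0.30 (SE 0.14), −0.27 (SE 0.16) and −0.63 (SE 0.26). Mmut, Mrps21 and Fbxl7 overlapped under both other scalings. Cbr4, Cpne3 and Tbc1d22b overlapped under median-ratio scaling, and Acot9 and Ints6l under neither.

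Stress response genes had lower means in SCCM for most members. Of 34 tested genes of the integrated stress and unfolded protein responses, 28 had a lower mean, with a median of −0.20. The median was −0.06 without PGE2 replicate 2 (20 of 34 lower), −0.08 without SCCM replicate 2 and −0.12 without PGE2 replicate 1. It was −0.35 when SCCM replicate 1 was left out, −0.34 for PGE2 replicate 3 and −0.43 for PGE2 replicate 4. Psat1, an enzyme of serine synthesis induced by ATF4, measured 3.4, 1.81, 2.34 and 1.53 FPKM in SCCM and 3.95, 5.51, 4.12 and 3.72 FPKM in PGE2. Edem1, a factor of endoplasmic reticulum-associated degradation, went the other way, from 8.25 to 9.94 FPKM in SCCM and from 4.11 to 7.91 FPKM in PGE2. These 2 of 34 were the members of that list without overlap, against 2.26% of all tested genes. Untreated libraries spanned both gaps.

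Of 30 tested cholesterol synthesis genes 25 had a lower mean in SCCM, with a median of −0.37. The number without overlap was 0, against 2.26% of all tested genes. Without SCCM replicate 4 the median was −0.11. The summed FPKM of the list was 1017 to 3092 in SCCM and 2532 to 3761 in PGE2. Fdft1, squalene synthase, measured 131.69, 137.25, 102.41 and 78.52 FPKM in SCCM and 176.97, 147.88, 157.1 and 134.76 FPKM in PGE2. The fatty acid desaturase gene Fads2, chosen after its values were seen, measured 134.65, 136.26, 108.59 and 46.75 FPKM in SCCM and 139.24, 162.12, 172.83 and 177.84 FPKM in PGE2. SCCM replicate 4 was the lowest library for both. The groups overlapped for Fads2 under median-ratio scaling and under quantile normalization.

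Metallothionein genes, which bind zinc and copper, differed by large amounts within both groups. Mt1 measured 96.18, 13.91, 17.98 and 52.18 FPKM in SCCM and 17.79, 32.22, 1.67 and 2.01 FPKM in PGE2, a log2 difference of 2.05 (SE 0.82). With the mean of the hypoxia and glycolysis genes as a covariate, limma called Mt1 (adjusted p = 0.0283) beside Sbno2 (adjusted p = 0.0105). Mt1m measured 57.9, 9.28, 7.1 and 12.04 FPKM in SCCM and 5.84, 20.66, 0.95 and 0 FPKM in PGE2. Paralogs of this family share sequence, so reads may have been divided among them. Of 34 tested hypoxia and glycolysis genes themselves, 0 separated the groups, against 2.26% of all tested genes. Their median was −0.05, ranging from −0.32 without PGE2 replicate 4 to 0.20 without PGE2 replicate 2.

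Markers of other cell types that passed the filter (7 glial, 5 fibroblast and meningeal, 1 endothelial and 1 macrophage gene) all overlapped between SCCM and PGE2 on the deposited scale. With median-ratio scaling, and with quantile normalization, 1 of the 5 fibroblast and meningeal markers was lower in SCCM without overlap. Of the glial markers the most abundant was Ngfr, a neurotrophin receptor that neurons also express, at 100.71 to 260.02 FPKM in SCCM and 44.62 to 183.35 FPKM in PGE2. The summed FPKM of all glial markers was 301 to 450 in SCCM and 244 to 378 in PGE2. Macrophage and immune markers summed to 0.68 to 16.4 FPKM in SCCM and 0.24 to 15.1 FPKM in PGE2. Cd68, a lysosomal gene, made up most of the sum at the high end, at 14.54 FPKM in SCCM replicate 1 and 13.55 FPKM in PGE2 replicate 2, and was at 0.08 to 0.37 FPKM in the other SCCM libraries. The part of other cell types in the values of the members was not tested. Endothelial and mural markers summed to at most 10.2 FPKM in SCCM and 5.71 FPKM in PGE2, and fibroblast and meningeal markers to 319 to 1059 and 894 to 1125 FPKM, most of it Thy1.

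**Figure D5:**
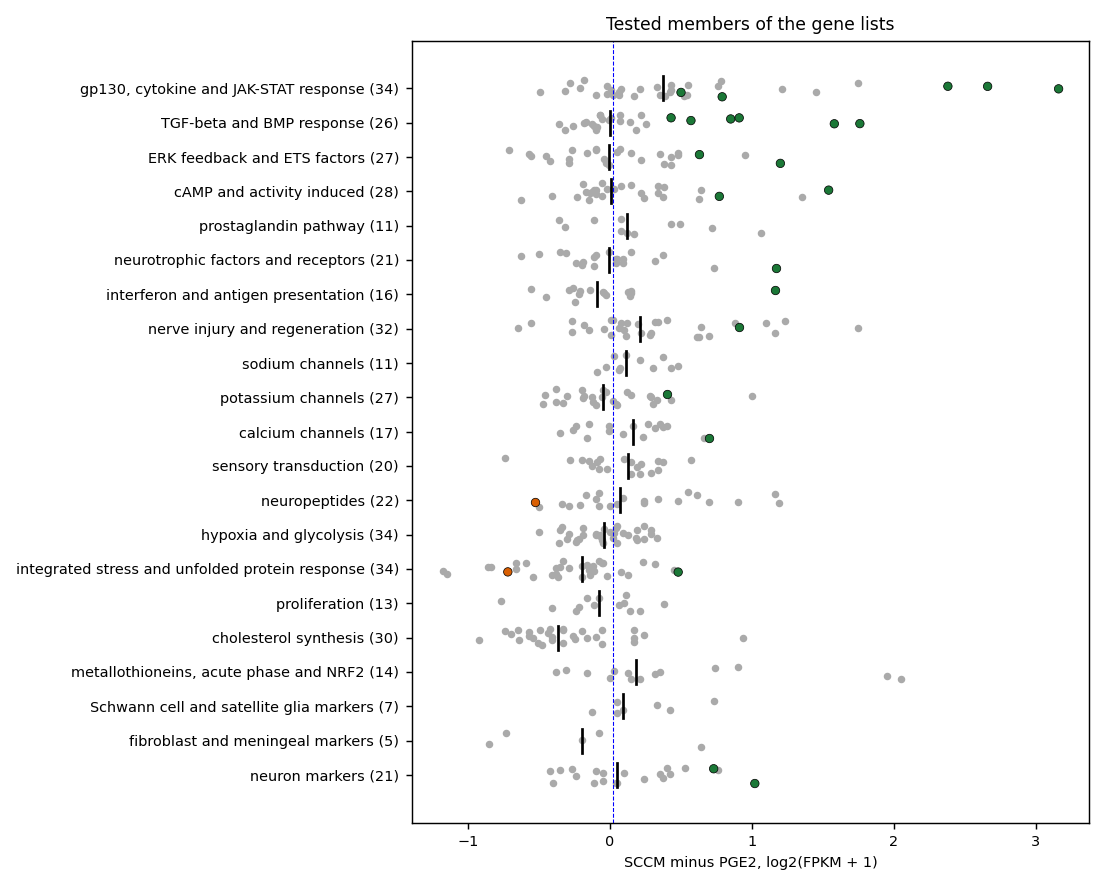
Log2 difference between SCCM and PGE2 (x) for each tested member of the gene lists with more than 1 tested member (y, number of tested members in brackets), with genes that do not overlap in green (higher) and orange (lower) and the list median as a black bar. The dashed line is the median of all tested genes, 0.022. The cytokine list has its median at 0.37 and the cholesterol list at −0.37, and in most other lists the points lie on both sides of the dashed line.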

How the data were processed

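Bulk RNA sequencing of poly-A enriched, stranded libraries from 11 neuron cultures was used. RNA had an integrity number above 8, per the labels' protocols. The deposited table holds FPKM computed by the authors, with 2 decimals and 1 column per library; Rnor 6.0 is the build in the submitters' processing notes. For the aligner, counting tool and annotation, names were not given in the sources used here. Without read totals in the table, no counting interval was set. The table held 22076 rows with values; 2 gene names had become dates, and 18420 names matched a symbol or synonym in RefSeq's gene table (GRCr8, used for names and promoter sequences only).

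Genes that averaged 1 FPKM or more across the 8 SCCM and PGE2 libraries were transformed as log2(FPKM + 1), which understates changes of low genes. A limma model (limma 3.58.1, R 4.3.3; lmFit, contrasts.fit, eBayes with trend) of the 3 groups over all 11 libraries gave the SCCM minus PGE2 difference with two-sided tests, adjusted by Benjamini-Hochberg over 11970 genes. The fit was also run on simulated data with known changes, in which genes varied independently of each other. That run does not cover shifts shared by many genes of a library. P-values measure the spread between cultures and treat all cultures as independent. The labels do not say whether a litter was divided among treatments.

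The members, the 23 gene lists and the naming rule were chosen with earlier results of these data known. The rule named called genes, the 12 widest gaps in each direction with gene names, up to 4 members per list without overlap or else 2 with the lowest p, and 12 fixed genes: Sbno2, Socs3, Stat3, Ccl2, Reg3b, Ptger1 to Ptger4, Scn9a, Scn10a and Scn11a. Genes outside this rule are marked as picked with their values in view. Alternatives were other pseudocounts, filters, scalings and eBayes settings, fewer libraries, a replicate block and a covariate. Some items are not reported here.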

Additional observations from a re-analysis of the deposited data

Results flagged for a closer look

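In groups of 4 libraries, 15 of 196 tests found a highest or lowest library whose gap to the next, as a share of the group's range, passed the 95% critical value, which chance gives in about 1 of 20. In PGE2 libraries, Reg3b was above 0 in replicate 1 alone (share 1, at 0.09 FPKM), Myc was low in replicate 1 (0.927, at 5.35 FPKM) and Mmut high there (0.859, at 18.2 FPKM), Socs3 was high in replicate 2 (0.936, at 1.87 FPKM), and Fam167a was low in replicate 3 (0.843, at 3.99 FPKM). In PGE2 replicate 4, Tmem60 (0.873, at 31.01 FPKM) and Mrps21 (0.913, at 29.1 FPKM) were high and Nol9 was low (0.89, at 14.33 FPKM).

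In SCCM libraries, replicate 1 was the high library for Ccne1 (0.848, at 26.22 FPKM), Igfbp6 (0.831, at 22.35 FPKM), Cd68 (0.911, at 14.54 FPKM) and Il6st (0.964, at 32.72 FPKM) and the low one for Cntfr (0.934, at 52.69 FPKM). Replicate 4 was high for Ier5l (0.913, at 14.02 FPKM) and low for AABR07035357.1 (0.84, at 12.95 FPKM). For Reg3b, Ier5l and Tmem60 the library that stood apart did not close the gap between SCCM and PGE2, since a gap is measured at the nearest values.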

How the results depend on the processing

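Over 98 named genes and all alternatives, 2004 of 2030 differences kept their direction and side of the threshold. This share says little about stability. Only Sbno2 passed the threshold in the main fit, and several alternatives cannot alter the difference itself. Direction turned for 13 values, Sbno2 lost its call in 11 settings, and 2 values gained one. Limma called 0 genes with log2(FPKM + 0.1), without a filter or under the replicate block, but 2 once hypoxia and glycolysis entered as a covariate; with 1 library left out it called 0 to 1. The Sbno2 difference was 2.92 (adjusted p = 0.057) with log2(FPKM + 0.1), 2.38 (adjusted p = 0.133) without a filter and 2.38 (adjusted p = 0.603) with the replicate block, and 2.22 to 2.55 with 1 library left out. Genes without overlap numbered 406 to 746 without 1 of the treated libraries, since fewer libraries overlap less often. The count rests on the order of the treated values alone. The pseudocount of 0.1 and the loss of an untreated library therefore cannot change the 271. Of the 196 higher and 75 lower genes, 89 and 23 did not overlap with median-ratio scaling, and 90 and 27 with quantile normalization. Same-numbered SCCM and PGE2 libraries deviated together for replicates 1 and 3 (correlations of 0.493 and 0.423) but not for 2 and 4 (−0.504 and −0.13), so the numbers were not taken to pair them; the block left 371 genes at an unadjusted p under 0.05 against 402. With 1 library left out, differences ran from −0.02 to 0.89 for S100b, −1.3 to 0.42 for Cd68, −0.72 to 2.1e-04 for Ptger2, −0.14 to 0.34 for Ptger3, −0.0096 to 0.74 for Scn10a, −0.11 to 0.47 for Scn11a, −0.43 to 0.34 for Lifr and −0.22 to 0.04 for Il6st. For Lifr the difference was −0.03 with median-ratio scaling and −0.02 with the covariate. The cause of these changes was not tested. Genes at a few FPKM, such as Reg3b, Tgfbi and Igfbpl1, rest on few fragments.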

Other observations

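Apart from Nol9 and Dazap1, RNA-processing genes without overlap were not described above. Those given here were chosen after their values were seen. Sfpq, a nuclear RNA-binding protein, measured 63.23, 50.71, 47.89 and 53.17 FPKM in SCCM, 35.13, 41.38, 40.02 and 39.4 FPKM in PGE2 and 46.33 to 56.78 FPKM untreated, so that the PGE2 libraries were below all others. The export helicase gene Ddx39b ran from 23.93 to 43.51 FPKM in SCCM, from 15.98 to 21.56 FPKM in PGE2 and from 22.85 to 26.59 FPKM untreated, with the same order. Srsf2, a splicing factor, ran from 60.09 to 92.42 FPKM in SCCM and from 18.66 to 57.36 FPKM in PGE2, lowest in PGE2 replicate 4. The log2 differences were 0.45 (SE 0.14), 0.62 (SE 0.19) and 0.96 (SE 0.31), each with a limma adjusted p of 1.0.

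Other genes without overlap, also chosen after their values were seen, were Actc1, a cardiac actin, at 33.94, 24.12, 15.66 and 40.19 FPKM in SCCM and 2.47, 10.8, 4.01 and 13.95 FPKM in PGE2, and Tmem100, a membrane protein of sensory neurons, at 2.73, 3.72, 2.83 and 1.44 FPKM in SCCM and 0, 0.67, 0.87 and 0.3 FPKM in PGE2. Furin, a protease that matures growth factor precursors, ran from 21.79 to 32.93 FPKM in SCCM and from 13.21 to 20.43 FPKM in PGE2, and Robo2, a receptor for Slit ligands, from 1.39 to 2.15 FPKM and from 0.61 to 1.37 FPKM. For these 4 genes untreated libraries lay on both sides of the gap.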
